A study of Gallus gallus with 9 samples.

Results

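The step from HH16 to HH18 in the chick olfactory placode was read from 6 of the 9 arrays of the series, 3 for each of these Hamburger and Hamilton stages. The remaining 3 arrays are of HH20 placodes and entered the fit as a further stage. They also took part in the normalization, the filter on dim probe sets, the choice of each gene's probe set and the shared estimate of spread. The results for HH16 and HH18 therefore depend on them in part. All 9 samples were placodes dissected from chick embryos without any labelled treatment or genotype, and the labels name the 3 samples of a stage biological replicates without saying how many embryos each one pooled. The genes described are the 10630 of 13008 annotated genes with a probe set brighter, on 3 or more arrays, than the 40th percentile of the chicken probe sets, and the 2378 others were too dim to enter the tests. A gene is represented by its brightest probe set with exactly 1 symbol, and a level is the quantile-normalized log2(intensity + 16).

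The olfactory placode is a thickening of the head ectoderm that invaginates to form the nasal pit. Its progenitors give rise to olfactory receptor neurons and supporting cells of the nose, and to cells that leave the epithelium, among them neurons that make gonadotropin-releasing hormone (GnRH). Newly born neurons pass through proneural transcription factors, then turn on neuronal tubulins, axonal motors, RNA-binding proteins and secretory granule proteins, while FGF, BMP, WNT and retinoic acid signals pattern the tissue around them. The roles given with gene names are background, mostly from mouse and human.

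The labelled tissue was checked against the placode regulators EYA2, DLX3, DLX5, PAX6, SOX2, SP8 and EMX2. DLX5, a homeodomain factor of the placode and its border, had a log2 level of 10.74 ± 0.15 (SD, n = 3) at HH16 and 10.65 ± 0.12 at HH18, and the zinc finger factor SP8 had 10.81 ± 0.18 and 11.05 ± 0.06. PAX6, needed for nose and lens placodes, had 9.38 ± 0.04 and 9.27 ± 0.13, and the co-activator EYA2 had 8.97 ± 0.21 and 9.21 ± 0.21. DLX3, SOX2 and EMX2 were dimmer, between 4.84 and 5.51 in both stages. None of these 7 passed the test, with adjusted p from 0.099 for SP8 to 0.59 for DLX5. Of the 27 tested placode transcription factors only LHX2 rose and none fell. GNRH1 itself had 8.80 ± 0.15 at HH16 and 8.63 ± 0.27 at HH18 (log2 change -0.17 ± 0.15, SE, adjusted p = 0.59), and its groups overlapped.

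The deposited signal summed over an array ranged from 3693918.9 to 8380013.1, with HH16 replicate 1 the brightest. HH18 replicate 2 stood apart, with the brightest virus probe sets (99th percentile 13.9, against 6.17 to 8.70 elsewhere) and the lowest share of chicken probe sets above that background, 46.9%. One sign of RNA or labelling quality moved with stage: the 3′ to 5′ signal ratio of the actin control probe sets was 2.96, 3.40 and 3.16 on the HH16 arrays and 3.67, 3.45 and 4.31 on the HH18 arrays. These groups did not overlap, and the part of this ratio in the results that follow was not tested. The GAPDH ratio overlapped, from 0.841 to 0.976 at HH16 and from 0.957 to 0.986 at HH18. The number of arrays limits the precision, with a median standard error of 0.148 on the log2 scale, and p-values refer to the spread among these samples alone. In whole tissue, fewer cells of a type and less RNA per cell cannot be told apart.

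Between HH16 and HH18, 566 probe sets rose and 546 fell, together 4.54% of the 24489 tested (limma, adjusted p under 0.05). Counted as genes, 310 rose, 2.92% of those tested, and 316 fell, 2.97%. A change was usually small: the median size over the called genes was 0.57 on the log2 scale, and 27 of the genes that rose and 21 of those that fell reached 2-fold. Sizes under 0.5 were found for 85 rises and 113 falls, and sizes between 0.5 and 1 for 198 rises and 182 falls. The arrays of the stages did not overlap for 620 of the 626 called genes, against 2635 of all tested genes (24.8%). The called genes are part of that total and were picked by a test on the same arrays. Their separation, here and below, is therefore a description and not further support. The plot of change against mean level shows the called genes at every brightness.

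**Figure D1:**
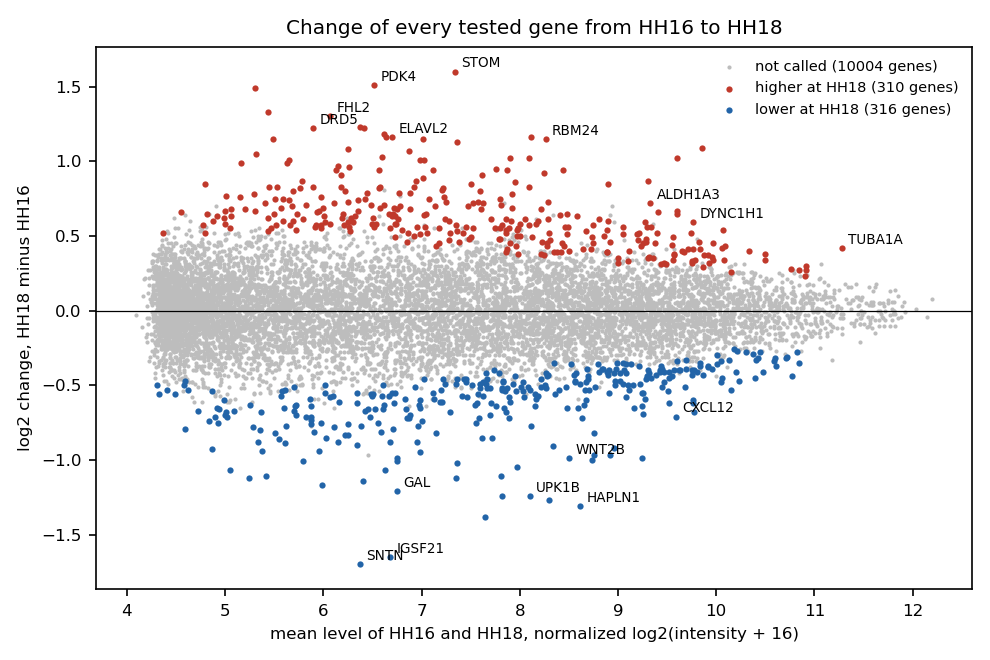
Each point is 1 of 10630 tested genes, with its mean level over the HH16 and HH18 arrays on the horizontal axis (normalized log2(intensity + 16)) and its log2 change, HH18 minus HH16, on the vertical axis. Red points are the 310 genes that rose and blue points the 316 that fell, and the smallest called changes belong to the brightest genes.

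The balance between rises and falls depends on how the arrays are put on a common scale. Quantile normalization gave 49.5% rises among called genes, whereas centring each array on its median gave 171 rises and 538 falls, or 24.1% rises. On the deposited values the median of all genes moved by -0.31, and 1 gene rose and 22 fell. Changes below are therefore relative to the median gene, whose log2 change was 0.00. For the 7 gene groups followed over the scalings, the median relative to all genes kept its sign for the neuronal transcription factors (0.39 to 0.47), the neuronal cytoskeleton (0.22 to 0.27), the early embryo genes (-0.18 to -0.15), ribosome biogenesis (-0.29 to -0.18), mitochondrial ribosomal proteins (-0.25 to -0.14) and muscle (-0.30 to -0.26). That of cytosolic ribosomal proteins lay between 0.00 and 0.09. Centring shifts all genes of an array alike, so its relative medians equal those of the deposited values by construction. Trimmed-mean scaling applies the same factor to a whole array, which leaves it limited room to differ.

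Genes that rose over 2-fold included the membrane protein STOM (1.6 ± 0.12, SE, n = 3 per stage here and below), the pyruvate dehydrogenase kinase PDK4 (1.51 ± 0.14) and the LIM-domain protein FHL2 (1.30 ± 0.14). The lipase LIPG read 6.51, 7.07 and 6.81 on the HH16 arrays and 7.86, 8.11 and 7.81 on the HH18 arrays (1.13 ± 0.14, adjusted p = 0.00025). ANTXR1, a receptor that binds matrix, rose by 1.07 ± 0.15, the galactose-binding lectin LGALS3 by 1.01 ± 0.15, and CLVS1, a lipid-binding protein of neuronal vesicles, by 1.15 ± 0.16. RBM24, an RNA-binding protein best known from muscle and sensory placodes, rose by 1.15 ± 0.12. MED10, a subunit of the Mediator complex, rose by 1.02 ± 0.27, but its HH16 arrays read 8.18, 9.34 and 9.75, and it was the only one of the genes named in this paragraph whose call was lost when single arrays were left out (adjusted p up to 0.11). Its call was lost without any of the 3 HH18 arrays, HH16 replicate 1 or HH16 replicate 2.

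Genes that fell included SNTN, a protein of cilia (-1.70 ± 0.18), and the adhesion protein IGSF21 (-1.65 ± 0.24). RASD1, a small GTPase of the Ras family, read 9.82, 9.66 and 9.74 at HH16 and 8.69, 8.63 and 8.93 at HH18 (-0.99 ± 0.10, adjusted p = 4.1e-05). CAMK1G, a calmodulin-dependent kinase, changed by -1.11 ± 0.13, the calmodulin-binding peptide PCP4 by -1.12 ± 0.15, the phosphodiesterase-domain protein GDPD5 by -1.12 ± 0.15 and the steroid reductase AKR1D1 by -1.07 ± 0.16. NBL1, a secreted antagonist of BMPs, read 9.46, 9.13 and 9.13 at HH16 against 8.31, 8.0 and 8.50 at HH18 (-0.97 ± 0.14, adjusted p = 0.00061). In each of these genes all HH18 arrays lay below all HH16 arrays, which the rule for naming the largest falls required. HAPLN1, which links hyaluronan to proteoglycans, fell by 1.31 ± 0.12.

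Gene groups were compared by their counts with the 2.92% and 2.97% of all genes, and they were not tested as groups. The plot of shares shows them side by side.

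**Figure D2:**
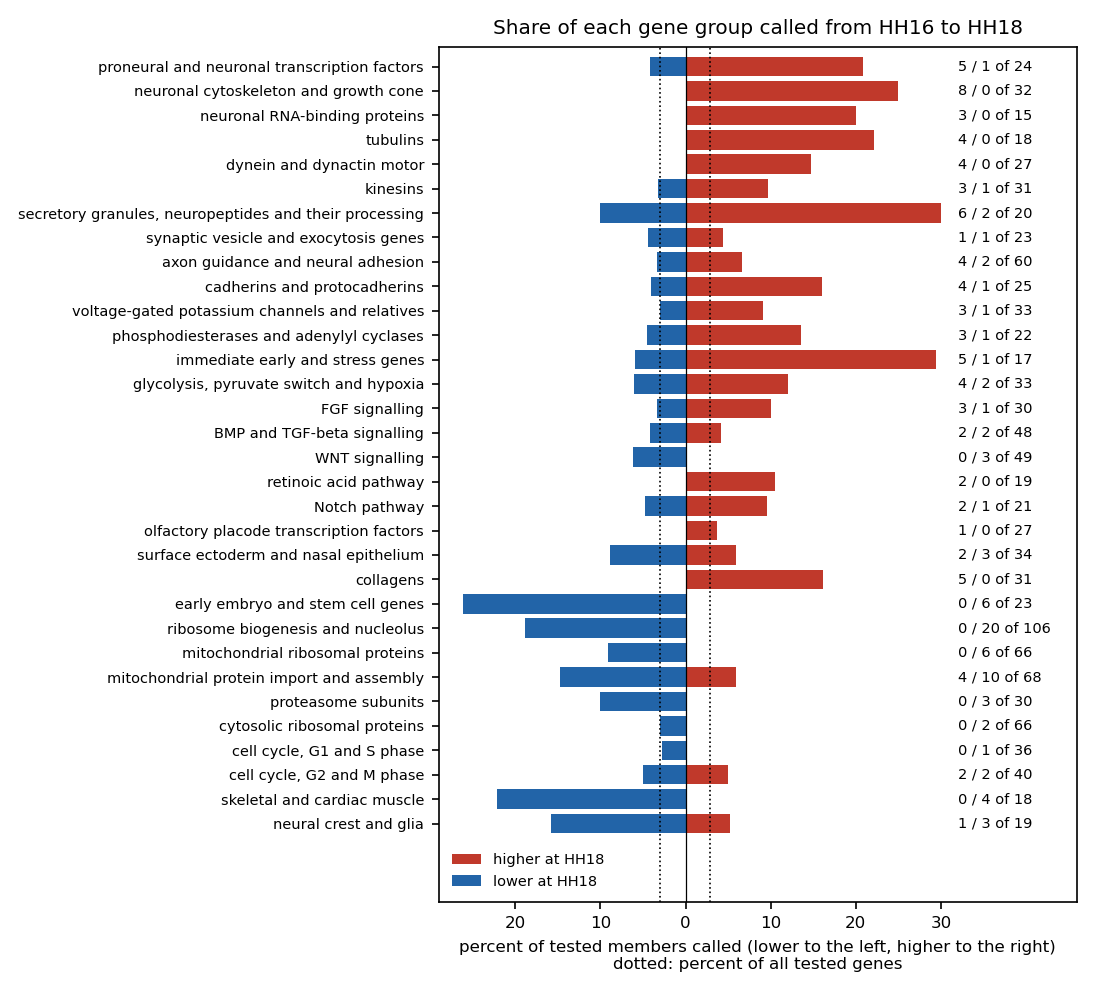
For 32 gene groups, bars give the percent of tested members that rose (red, to the right) or fell (blue, to the left) from HH16 to HH18, with the counts of rises, falls and tested members at the right edge. Dotted lines mark 2.92% and 2.97%, the shares of all tested genes. To the right, granule and neuropeptide genes reach 30%, immediate early genes 29.4% and neuronal cytoskeleton genes 25%; to the left, early embryo genes reach 26.1%, muscle genes 22.2% and ribosome biogenesis genes, a list made after values were seen, 18.9%.

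Of 24 tested transcription factors of neuronal differentiation, 5 rose (BCL11A, NHLH2, LHX2, ISL2 and EBF3), 1 fell (ZEB2) and 18 did not pass, and 19 of the 24 had a positive change, with a median of 0.39. This list does not hold BHLHE22, which also rose (0.73 ± 0.14, adjusted p = 0.0059) and is named after its values were seen. BCL11A, a zinc finger factor of postmitotic neurons, read 6.73, 7.68 and 7.44 at HH16 and 8.18, 8.22 and 8.29 at HH18 (0.95 ± 0.18, adjusted p = 0.0062). LHX2, a LIM homeodomain factor needed for olfactory receptor neurons in the mouse, read 5.33, 5.75 and 5.72, then 6.55, 6.21 and 6.34 (0.76 ± 0.15, adjusted p = 0.0071). For both, every HH18 array was above every HH16 array, though HH16 replicate 1 was the lowest by some margin. NHLH2, a helix-loop-helix factor of young neurons and of GnRH neurons, went from 5.89, 6.04 and 6.22 to 6.56, 6.98 and 6.98 (0.79 ± 0.17, adjusted p = 0.013). The other tested probe set of NHLH2 was not called and did not share this direction.

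ISL2, a LIM homeodomain factor of postmitotic neurons, rose by 0.63 ± 0.16 and EBF3, of a family that acts after the proneural genes, by 0.51 ± 0.12, whereas ZEB2, a zinc finger repressor known from neural crest and neurons, fell by 0.77 ± 0.16. The proneural factor NEUROG1 had 5.0 ± 0.12 (SD) at HH16 and 5.53 ± 0.10 at HH18, a change of 0.53 ± 0.15 that missed the threshold (adjusted p = 0.054) although its groups did not overlap. NEUROD1 (0.39 ± 0.15, adjusted p = 0.16) and EBF2 (0.39 ± 0.14, adjusted p = 0.14) likewise did not pass. GATA3 overlapped between these stages (0.26 ± 0.17, adjusted p = 0.44). With each array left out in turn, BCL11A and LHX2 kept their calls. The other 4 called genes of the list lost theirs at least once, all 4 of them without HH18 replicate 2 (adjusted p from 0.051 to 0.15 where lost). The group's 5 rises became 2 without HH18 replicate 2, and the count also moved over 1.5 times without HH16 replicate 1.

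**Figure D3:**
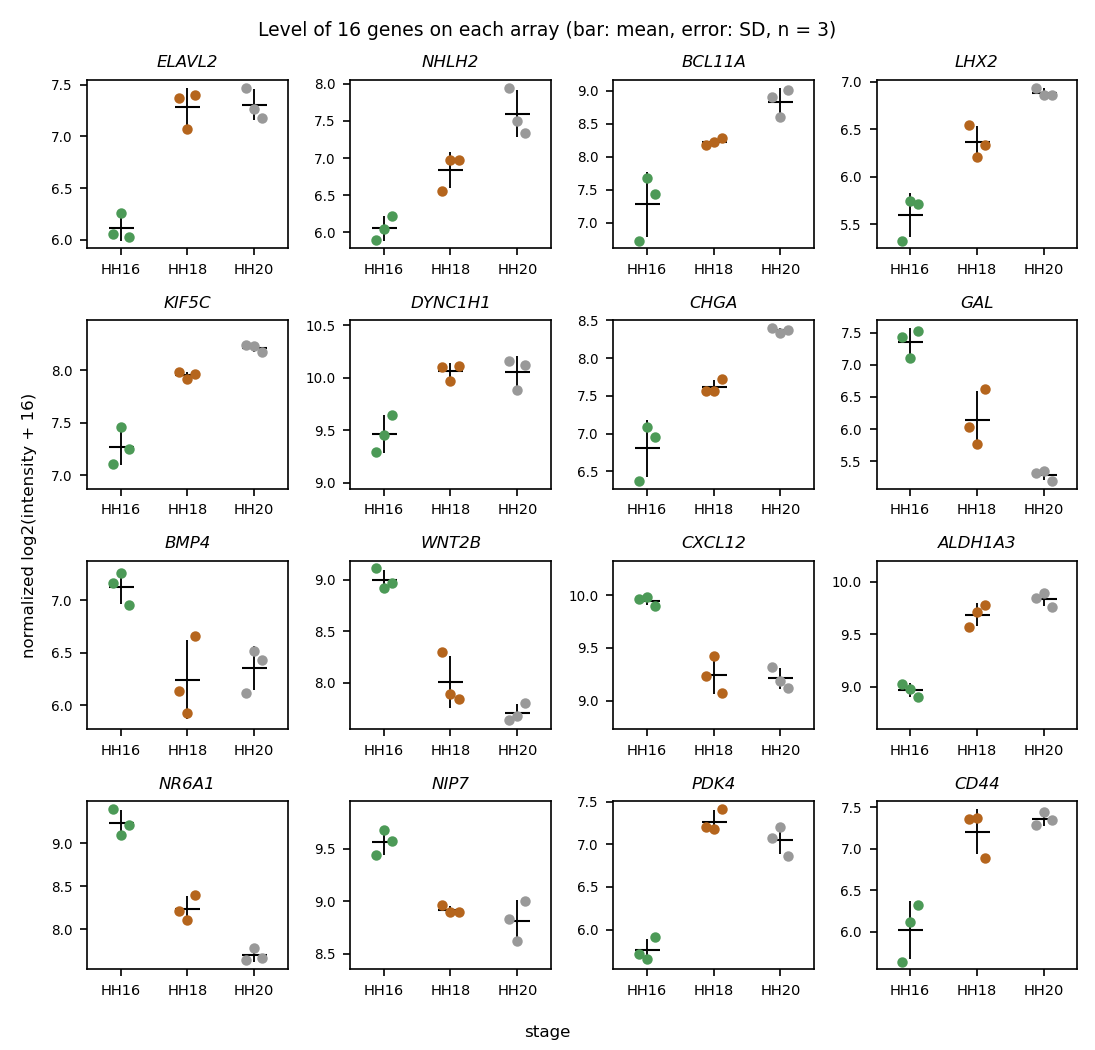
Levels of 16 genes on each of the 9 arrays (vertical axes, normalized log2(intensity + 16), with a span of at least 1.6 that differs in position between panels), by stage. Points are arrays, and bars with error lines are the mean ± SD of 3 arrays. In every panel the HH16 points lie apart from the HH18 points, and HH20, in grey, is shown for context.

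Of 32 tested genes of the neuronal cytoskeleton and growth cone, 8 rose and 0 fell, 25 had a positive change, and the median was 0.22. KIF5C, a neuronal kinesin that carries cargo along axons, read 7.11, 7.46 and 7.25 at HH16 and 7.98, 7.92 and 7.96 at HH18 (0.68 ± 0.11, adjusted p = 0.0028). MAP1A, a microtubule-associated protein of neurons, rose by 0.60 ± 0.13, TAGLN3, an actin-binding protein of neurons, by 0.52 ± 0.10, and STMN2, which regulates microtubules in growing axons, by 0.55 ± 0.12. The others were the kinase DCLK1 (0.82 ± 0.21), the kinesin light chain KLC1 (0.49 ± 0.13), the microtubule stabilizer MAP6 (0.48 ± 0.11) and the neuronal tubulin TUBB3 (0.43 ± 0.12). Left out in turn, the arrays gave between 3 and 9 rises, with 3 without HH18 replicate 2, and the count also moved over 1.5 times without HH16 replicate 1, HH16 replicate 3 or HH18 replicate 3. Centring on medians left 2.

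Of 18 tested tubulins, 4 rose and 0 fell. TUBA1A, an alpha-tubulin abundant in young neurons, was bright at both stages, with 11.03, 10.93 and 11.24 at HH16 and 11.50, 11.53 and 11.44 at HH18 (0.42 ± 0.08, adjusted p = 0.0053). TUBB2A rose by 0.56 ± 0.10 and TUBA5 by 0.50 ± 0.11. The probe sets of TUBA1A, TUBB2A and TUBB3 are designed against several similar transcripts, so signal may be shared among tubulin genes. No tubulin was called with the arrays centred on their medians, and 2 to 4 rose with single arrays left out, 2 of them without HH18 replicate 1.

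Motor proteins were called in both directions. Among 31 kinesins, KIF5C, KIF2A (0.37 ± 0.09) and the mitotic KIF11 (0.33 ± 0.09) rose, and KIF25 fell, from 9.57, 9.37 and 9.26 to 8.43, 8.28 and 8.59 (-0.97 ± 0.11, adjusted p = 0.00014). With single arrays left out 1 or 2 of the 3 kinesin rises were called, and HH16 replicate 1, HH16 replicate 2 and HH18 replicate 2 moved that count over 1.5 times. A list of dynein and dynactin genes, put together after the values had been seen, held 4 rises and 0 falls among 27, and its median of -0.05 was below that of all genes. The rises were in cytoplasmic dynein 1, which carries cargo toward the cell body: its heavy chain DYNC1H1 read 9.29, 9.46 and 9.65, then 10.10, 9.97 and 10.11 (0.59 ± 0.10, adjusted p = 0.0028). The intermediate chain DYNC1I1, the form found mainly in neurons, rose by 0.83 ± 0.14, the light intermediate chain DYNC1LI2 by 0.63 ± 0.11, and the motor adaptor SPAG9 by 0.51 ± 0.10. Of the 18 genes of cytoskeleton and motors named, 9 kept their calls with each array left out: KIF5C, MAP1A, TAGLN3, TUBB2A, TUBA1A, KIF25 and the 3 dynein subunits. The remaining 9 lost theirs in at least 1 case, 8 of them without HH18 replicate 2, with adjusted p from 0.052 to 0.64.

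RNA-binding proteins of the ELAV family bind and stabilise transcripts in neurons. ELAVL2 read 6.06, 6.26 and 6.03 at HH16 and 7.37, 7.07 and 7.40 at HH18 (1.16 ± 0.14, adjusted p = 0.00014). ELAVL4 rose by 0.60 ± 0.12 and MSI1, an RNA-binding protein of neural progenitors, by 0.34 ± 0.09, while MSI1 changed by -0.14 in the mean of its probe sets. The 12 other members of this list of 15 did not pass, its median was 0.01, and only 1 of the 3 rises was called without HH18 replicate 2.

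Secretory granule and neuropeptide genes changed in both directions: of 20 tested, 6 rose and 2 fell. Chromogranin A (CHGA), a matrix protein of granules, read 6.37, 7.09 and 6.95 at HH16 and 7.57, 7.56 and 7.72 at HH18 (0.81 ± 0.15, adjusted p = 0.0062). PENK, the precursor of enkephalins, read 5.26, 5.50 and 5.29, then 5.91, 6.48 and 6.27 (0.87 ± 0.16, adjusted p = 0.0048). Both had non-overlapping groups. The vesicle protein SV2C rose by 1.23 ± 0.19, the somatostatin gene SST1 by 0.99 ± 0.23, the exocytosis factor CADPS by 0.57 ± 0.14, and the granule protein SCG3 by 0.65 ± 0.17 with overlapping groups.

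The peptide genes that fell were GAL and PNOC, the precursors of galanin and nociceptin. GAL read 7.44, 7.11 and 7.52 at HH16 and 6.03, 5.76 and 6.63 at HH18 (-1.21 ± 0.19, adjusted p = 0.0011), and PNOC fell by 0.65 ± 0.15. PENK and PNOC, related opioid peptide precursors, thus passed the test in opposite directions. In the list of 23 synaptic vesicle genes, SV2C rose and the vesicle protein SYP fell (-0.49 ± 0.13), and 21 did not pass. ELAVL2, SV2C, PENK, CHGA and GAL kept their calls with each array left out. The other 7 genes of these families lost theirs at least once, 6 without HH18 replicate 2 (adjusted p from 0.053 to 0.14), and the 6 rises of the granule list became 3 without that array, the count also moving over 1.5 times without HH16 replicate 1.

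Axon guidance and adhesion genes had 4 rises (SEMA5A, EPHA5, CDH2 and PLXND1) and 2 falls (IGSF21 and PRTG) among 60, with a median of 0.06. EPHA6 and SEMA4G, given below, come from families of shared symbol and are not in that list. SEMA5A, a transmembrane semaphorin, read 6.47, 6.6 and 6.87 at HH16 and 7.39, 7.42 and 7.96 at HH18 (0.94 ± 0.16, adjusted p = 0.0023), and the plexin PLXND1, a semaphorin receptor, rose by 0.46 ± 0.12. Of 15 Eph receptors and ephrins, the receptors EPHA6 (4.77, 4.56 and 4.69, then 5.68, 5.60 and 5.71) and EPHA5 rose, by 0.99 ± 0.14 and 0.75 ± 0.13, and 13 did not pass. SEMA4G fell, and at HH18 it was not well above background on any array: its 4.32, 4.11 and 4.16 give a fall of at least 1.25-fold. Such a bound sets the HH16 mean against the higher of the array's background level and the probe set's own value. PRTG, an immunoglobulin-domain protein of early neuroepithelium, fell from 7.58, 6.96 and 7.21 to 6.15, 6.04 and 6.59 (-0.99 ± 0.18, adjusted p = 0.0049).

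Cadherins join cells of the same type. Of 25 cadherins and protocadherins, CDH2, the N-cadherin of neural tissue, rose by 0.50 ± 0.13, CDH8 by 0.62 ± 0.17, PCDH17 by 0.67 ± 0.16 and PCDHGA2 by 0.39 ± 0.09, and PCDH19 fell by 0.88 ± 0.20. None of these 4 rises was called without HH18 replicate 2, and the count also moved over 1.5 times without HH16 replicate 2 or replicate 3. Laminins (10 tested), keratins (10) and the teneurin, contactin and FLRT group (12) had no called member.

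Ion channels and receptors for transmitters were called in both directions. TRPC4, a calcium-permeable channel, read 5.21, 4.60 and 4.93 at HH16 and 6.10, 6.11 and 5.96 at HH18 (1.15 ± 0.18, adjusted p = 0.0017), and its relative TRPC1 rose by 0.46 ± 0.12. The potassium channels KCNJ8 (0.67 ± 0.15), KCND2 (0.63 ± 0.17) and KCNC2 (0.57 ± 0.12) rose among 33 tested, and KCNMB4 fell to a level not well above background (at least 1.12-fold). The sodium channel SCN3A rose from a level not well above background (at least 1.05-fold), and at HH18 it was above it on 1 array. DRD5, a dopamine receptor, was the only called member of 24 receptors for acetylcholine, monoamines and adenosine: it read 5.09, 5.51 and 5.28, then 6.70, 6.34 and 6.48 (1.22 ± 0.16, adjusted p = 0.0003). The other tested probe set of DRD5 was not called and did not share this direction. The same held for the other tested probe sets of TRPC1 and KCNC2.

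Of the 20 called genes of guidance, adhesion, channels and transmitter receptors, SEMA5A, EPHA5, EPHA6, PRTG, TRPC4 and DRD5 kept their calls with each array left out. The other 14 lost theirs at least once, 12 without HH16 replicate 2 and 12 without HH18 replicate 2, with adjusted p from 0.050 to 0.18. The 3 rises among potassium channels became 0 at the least, and HH16 replicate 2 and HH18 replicate 2 moved that count over 1.5 times. Of 7 tested GABA and glycine receptors, GABRB2, a subunit of the GABA-A receptor, fell by 0.73 ± 0.18 (adjusted p = 0.026) and 0 rose, and none of 11 tested glutamate receptors was called.

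Signalling genes were called in small numbers in each pathway. BMP4, a ligand with roles in placode and limb patterning, read 7.16, 7.26 and 6.95 at HH16 and 6.14, 5.93 and 6.66 at HH18 (-0.88 ± 0.17, adjusted p = 0.0085), and the related BMP2 fell by 0.57 ± 0.14. TMEFF2, a transmembrane protein with follistatin domains, rose by 0.89 ± 0.12 and SMAD3, a transducer of TGF-beta and activin signals, by 0.55 ± 0.12. The other 44 of 48 tested genes in the BMP and TGF-beta list did not pass. NBL1, the BMP antagonist named above, fell but is not in that list. Neither BMP2 nor BMP4 was called without HH18 replicate 2 (BMP4 adjusted p = 0.055).

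In the WNT list 0 of 49 rose and 3 fell (6.12%), against 2.92% and 2.97% of all tested genes. The list as a whole was not shifted, with a median of 0 and 24 positive changes. WNT2B, a ligand of surface ectoderm and eye margin, read 9.11, 8.92 and 8.97 at HH16 and 8.30, 7.89 and 7.84 at HH18 (-0.99 ± 0.12, adjusted p = 0.00023). NOTUM and SFRP1, which antagonise WNT ligands outside the cell, fell by 0.49 ± 0.13 and 0.32 ± 0.07. Only 1 of the 3 falls was called without HH18 replicate 2. None of 11 Hedgehog pathway genes was called.

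FGF ligands moved in both directions: FGF9 fell from 7.34, 7.16 and 7.19 to 6.32, 6.68 and 6.54 (-0.72 ± 0.13, adjusted p = 0.0051), and FGF16, of the same subfamily, rose by 0.58 ± 0.14. FGFRL1, a receptor without a kinase domain, rose by 0.47 ± 0.12 and the feedback inhibitor SPRY2 by 0.35 ± 0.10, and 26 of 30 members did not pass. FGF8, a placode-patterning ligand, had 7.16 ± 0.42 (SD) and 6.84 ± 0.20 and overlapped (adjusted p = 0.35). The 3 rises of the list became 0 at the least, and 5 of the 6 arrays moved that count over 1.5 times, all but HH16 replicate 3.

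Of 19 tested retinoic acid pathway genes, ALDH1A3 and RDH10, both enzymes of synthesis, rose and 17 did not pass, and the median change was -0.12. ALDH1A3, which makes retinoic acid from retinal in the nasal region, read 9.03, 8.98 and 8.90 at HH16 and 9.57, 9.71 and 9.78 at HH18 (0.72 ± 0.09, adjusted p = 0.00017). RDH10, which makes retinal from retinol, rose by 0.36 ± 0.09. For both, every HH18 array lay above every HH16 array, and without HH16 replicate 1 or replicate 3 only 1 of the 2 rises was called.

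Notch genes had 2 rises, of the target HEY1 (0.27 ± 0.07) and the protease ADAM10 (0.41 ± 0.10), and 1 fall, of the receptor NOTCH2 (-0.42 ± 0.11), among 21, and neither rise was called with all arrays centred on their medians. CXCL12, a chemokine that guides migrating cells including GnRH neurons, read 9.97, 9.98 and 9.90 at HH16 and 9.23, 9.42 and 9.07 at HH18 (-0.71 ± 0.10, adjusted p = 0.00041). CXCL12 and TUBB3 were the only 2 called in the list of 24 genes of GnRH neurons and Kallmann syndrome, which does not hold NHLH2. Over the 17 called signalling genes named, TMEFF2, FGF9, WNT2B, ALDH1A3 and CXCL12 kept their calls with each array left out, and the other 12 lost theirs at least once, 11 without HH18 replicate 2 and 8 without HH16 replicate 1 (adjusted p from 0.053 to 0.18).

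Of 23 early embryo and stem cell genes, 6 fell, 0 rose and 17 did not pass, and the median was -0.15. NR6A1, a nuclear receptor that is shut off as embryonic cells differentiate, read 9.40, 9.10 and 9.21 at HH16 and 8.21, 8.11 and 8.40 at HH18 (-1.0 ± 0.11, adjusted p = 0.00011). LIN28A and LIN28B, which block maturation of let-7 microRNAs, fell together, LIN28A by 0.93 ± 0.18 and LIN28B by 0.81 ± 0.19. LIN28B read 6.73, 6.30 and 5.92, then 5.68, 5.22 and 5.63, with the HH16 arrays spread over most of that range and no overlap. HMGA2, a chromatin protein of proliferating embryonic cells and a let-7 target, fell by 0.68 ± 0.18, MYC by 0.51 ± 0.13, and PRTG completes the 6. NR6A1 and LIN28A kept their calls with each array left out, and LIN28B, HMGA2 and MYC lost theirs (adjusted p from 0.062 to 0.15). All 3 did so without HH16 replicate 2, where the list had 3 falls. Without HH16 replicate 1 and HH18 replicate 2 together, a pair chosen after seeing the data, the list had 1 fall.

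**Figure D4:**
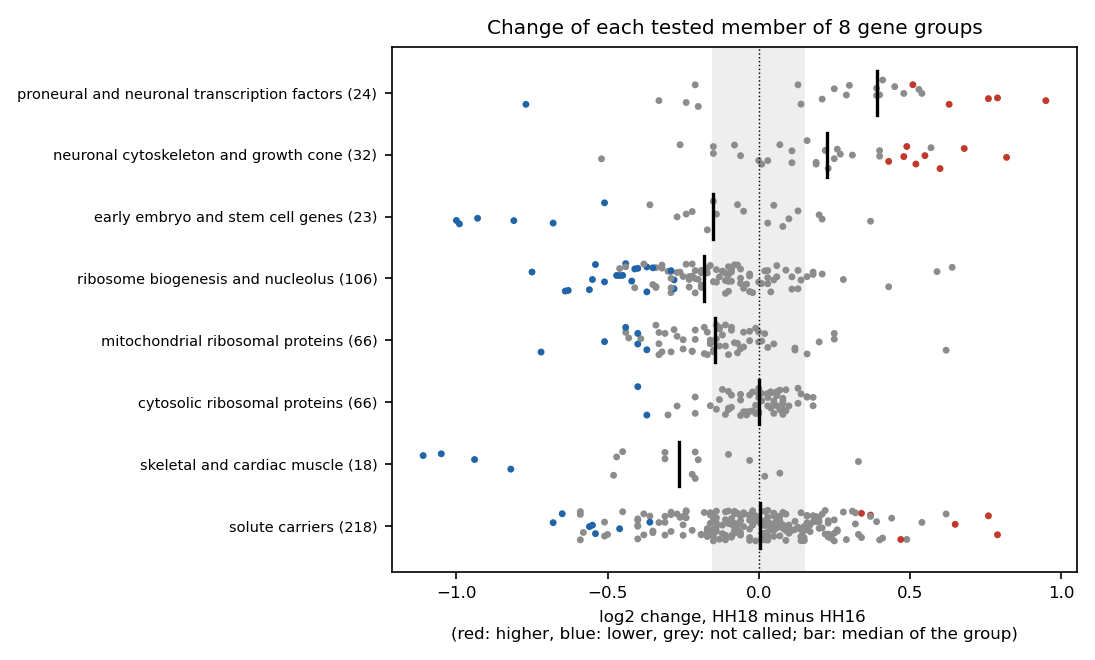
Each point is a tested member of 1 of 8 gene groups, with its log2 change from HH16 to HH18 on the horizontal axis (red rose, blue fell, grey not called) and a black bar at the group's median. The grey band spans the quartiles of all tested genes, -0.15 to 0.15. The medians of the neuronal groups lie to the right of the band, those of ribosome biogenesis and muscle to its left, and those of cytosolic ribosomal proteins and solute carriers at 0.

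Factors that build ribosomes and the proteins of the ribosome itself were counted separately. In a list of 106 nucleolar and ribosome biogenesis genes, made after the values had been seen, 20 fell and 0 rose, 23 had a positive change, and the median was -0.18. NIP7, a factor of 60S subunit maturation, read 9.44, 9.68 and 9.57 at HH16 and 8.96, 8.90 and 8.90 at HH18 (-0.64 ± 0.10, adjusted p = 0.0019). IMP3, a component of the small subunit processome, fell by 0.75 ± 0.15, BYSL by 0.56 ± 0.14, MRTO4 by 0.47 ± 0.11, RRP12 by 0.46 ± 0.12 and the rRNA methyltransferase EMG1 by 0.45 ± 0.10. The 20 falls became 4 without HH18 replicate 2 and 28 with the arrays centred on their medians, and leaving out HH16 replicate 2, HH16 replicate 3 or HH18 replicate 3 also moved the count over 1.5 times. Of the 66 cytosolic ribosomal proteins, RPS28 (-0.40 ± 0.10) and RPL35A (-0.37 ± 0.08) fell, 0 rose and the median was 0.00. This family was taken by symbol and the biogenesis list was picked with values in view, so their counts are not a like comparison.

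Mitochondrial ribosomal proteins had 6 falls and 0 rises among 66, 11 positive changes and a median of -0.15. MRPL41 fell by 0.72 ± 0.16, MRPL9 by 0.51 ± 0.12 and MRPS14 by 0.44 ± 0.11. No member was called without HH18 replicate 2, HH16 replicate 2 and replicate 3 also moved the count over 1.5 times, and 16 fell with the arrays centred on their medians. Genes of mitochondrial import and assembly, a list also made after the values had been seen, gave 10 falls and 4 rises among 68: UQCC3, an assembly factor of complex III, read 7.35, 7.72 and 7.33, then 6.6, 6.35 and 6.58 (-0.95 ± 0.16, adjusted p = 0.0028), SMIM4 fell by 0.85 ± 0.20 and the import receptor TOMM70 by 0.58 ± 0.13, while COX11, an assembly factor of complex IV, rose by 0.57 ± 0.15. Every one of the 6 arrays moved the 4 rises over 1.5 times when left out, and the 10 falls became 3 at the least.

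Of 30 proteasome subunits, 3 fell and 0 rose, with a median of -0.10, and PSMD3, a subunit of the regulatory particle, fell by 0.60 ± 0.11. The 3 falls became 1 at the least, and HH16 replicate 3, HH18 replicate 2 and HH18 replicate 3 moved that count over 1.5 times. Respiratory complex I (33 tested, 1 fall), translation factors (53, 1 fall) and splicing factors (51, 1 fall) were near the share of all genes. Of the 16 genes named from these families, NIP7, EMG1, PSMD3 and UQCC3 kept their calls with each array left out, and the other 12 lost theirs at least once, 11 without HH18 replicate 2 and 10 without HH16 replicate 2 (adjusted p from 0.050 to 0.17). Cell cycle genes had 0 rises and 1 fall among 36 of G1 and S phase, and 2 rises and 2 falls among 40 of G2 and M phase. With any 1 array left out, those 2 rises became 0 or 1, and the 2 falls became 1 to 3, moving over 1.5 times without HH16 replicate 2, HH16 replicate 3, HH18 replicate 1 or HH18 replicate 2.

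Metabolic switch genes included a pair of kinases with opposite changes. PDK4, the pyruvate dehydrogenase kinase named above, read 5.71, 5.65 and 5.91 at HH16 and 7.20, 7.18 and 7.42 at HH18 (adjusted p = 2.2e-05). Its relative PDK3 fell by 0.44 ± 0.10. Among the 33 genes of glycolysis, the pyruvate switch and hypoxia, 4 rose and 2 fell: NDRG1, a hypoxia-induced protein, rose by 1.16 ± 0.22, the hypoxia-inducible factor EPAS1 by 0.80 ± 0.16 and MXI1, an antagonist of MYC, by 0.65 ± 0.08, and the phosphofructokinase PFKL fell by 0.46 ± 0.13. MXI1 was tight, at 9.26, 9.28 and 9.31, then 9.91, 9.85 and 10.04 (adjusted p = 0.00018). The 4 rises held with each array left out, and the 2 falls became 0 or 1 with any array left out.

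Phosphodiesterases, which break down cyclic nucleotides, were also called in both directions among 22 phosphodiesterases and adenylyl cyclases. PDE4D, specific for cAMP, read 5.66, 6.46 and 6.03 at HH16 and 7.14, 7.16 and 7.36 at HH18 (1.16 ± 0.16, adjusted p = 0.00059). PDE8B, also specific for cAMP, rose by 0.83 ± 0.15 and PDE10A by 0.60 ± 0.14. PDE9A, specific for cGMP, fell from 5.51, 5.80 and 5.47 to 4.42, 4.17 and 4.97 (-1.07 ± 0.18, adjusted p = 0.0033). Its HH18 values of 4.42 and 4.17 are near those of SEMA4G, which were not well above background, so the size of this fall is uncertain.

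Immediate early and stress genes, which respond quickly to many stimuli, had 5 rises and 1 fall among 17. The transcription factor EGR1 rose by 0.83 ± 0.17, JUN by 0.56 ± 0.12, the phosphatases DUSP5 by 0.63 ± 0.12 and DUSP1 by 0.57 ± 0.14, and KLF6 by 0.61 ± 0.09, and MYC was the fall. The 5 rises became 2 at the least, the count moving over 1.5 times without HH18 replicate 1 or replicate 2. KLF5, a Krüppel-like factor of epithelia, fell by 0.67 ± 0.14, opposite to KLF6.

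Other families split in the same way. The glutathione transferases GSTA4 (1.08 ± 0.16) and GSTA3 (1.01 ± 0.25) rose and GSTO2 fell (-0.36 ± 0.10), GSTA3 with 6.63, 6.57 and 5.29 on the HH18 arrays, so that HH18 replicate 3 was close to the HH16 level of 5.06 to 5.26. Among S100 calcium-binding proteins, S100A1 read 7.06, 7.13 and 7.05, then 7.79, 7.92 and 8.06 (0.85 ± 0.12, adjusted p = 0.00073), S100A6 rose by 0.59 ± 0.11, and S100A10 fell from 9.23, 9.63 and 9.41 to 8.68, 8.31 and 8.52 (-0.92 ± 0.12, adjusted p = 0.00039). The tetraspanins CD82 and CD9 were called in opposite directions, at 0.71 ± 0.13 and -0.85 ± 0.15. Of the 23 genes of metabolism, cyclic nucleotides and these families other than PDK4, 14 kept their calls with each array left out, and the 9 that did not (PDK3, PFKL, PDE10A, EGR1, JUN, DUSP1, KLF5, GSTA3 and GSTO2) all lost theirs without HH18 replicate 2, with adjusted p from 0.050 to 0.19.

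Epithelial genes were called in both directions, with 2 rises and 3 falls among 34 genes of surface ectoderm and nasal epithelium. UPK1B, a tetraspanin of specialised epithelia, read 9.03, 8.64 and 8.48 at HH16 and 7.71, 7.39 and 7.32 at HH18 (-1.24 ± 0.14, adjusted p = 0.00014), and ST14, a membrane protease of epithelia, fell by 0.69 ± 0.13. PKP2, a protein of desmosomes, read 7.53, 7.24 and 7.39, then 8.36, 8.20 and 8.66 (1.02 ± 0.13, adjusted p = 0.00025), and the claudin CLDN10 rose by 0.59 ± 0.16. For hyaluronan matrix, the receptor CD44 rose from 5.64, 6.12 and 6.32 to 7.36, 7.37 and 6.89 (1.18 ± 0.17, adjusted p = 0.00069), opposite to the link protein HAPLN1.

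Collagens had 5 rises and 0 falls among 31, with a median of -0.02. COL14A1, a fibril-associated collagen, rose by 0.83 ± 0.16, COL24A1 by 0.78 ± 0.16, COL6A3 by 0.75 ± 0.21, COL6A1 by 0.69 ± 0.15 and COL1A2 by 0.67 ± 0.17. COL6A3 was uneven, with 6.29, 6.14 and 5.22 at HH18 against 5.06 to 5.20 at HH16. Without HH18 replicate 2 only 1 of the 5 was called, and HH16 replicate 1 and replicate 3 also moved the count over 1.5 times. PKP2, UPK1B, ST14, COL14A1 and CD44 kept their calls with each array left out.

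Markers of other tissues near the placode were followed as well. The summed level of 31 mesenchyme genes overlapped, from 8650 to 9360 at HH16 and from 9200 to 11000 at HH18 (sums of normalized intensities), with 4 rises (COL6A3, COL6A1, COL1A2 and the palate factor TBX22, 0.64 ± 0.15) and 1 fall, SNAI2. Those rises became 0 without HH18 replicate 2, and HH16 replicate 1, HH16 replicate 3, HH18 replicate 1 and HH18 replicate 3 also moved the count over 1.5 times, up to 9. The part of mesenchyme in the collagen changes was not tested. Every tested marker in these lists was above background on at least 1 array.

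Muscle genes were lower at HH18, at a summed level of 2000 to 2090 over 18 markers at HH16 and 1210 to 1480 at HH18, with 4 falls, 0 rises and a median of -0.26. SH3BGR, a small protein of heart and skeletal muscle, read 8.71, 8.23 and 8.55, then 7.42, 7.32 and 7.60 (-1.05 ± 0.14, adjusted p = 0.0003), and the cytoskeletal CSRP3 (-1.11 ± 0.18), the myosin MYH7 (-0.94 ± 0.16) and the troponin TNNC1 (-0.82 ± 0.13) fell with it. All 4 calls held with each array left out. Without TNNC1, whose mean intensity differed most between the stages, the sums of the other 17 stayed apart. They ran from 1400 to 1550 at HH16 and from 905 to 1120 at HH18.

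Neural crest and glia markers were also lower in sum, from 4190 to 4610 at HH16 and from 3530 to 4040 at HH18 over 19 genes. Without FABP7, a fatty acid binding protein of glia, the sums of the other 18 overlapped, from 2230 to 2430 and from 2010 to 2560. SNAI2, a factor of crest cells that leave an epithelium, read 6.92, 7.08 and 6.99, then 6.18, 6.16 and 6.21 (-0.81 ± 0.13, adjusted p = 0.0017), ZEB2 and FABP7 (-0.44 ± 0.08) fell, and the endothelin receptor EDNRB rose by 0.65 ± 0.13. Leukocyte markers were dim but higher, from 228 to 290 and from 297 to 446 over 13 genes, with a rise of the macrophage receptor CSF1R (0.83 ± 0.18), and without CD74, a chaperone of antigen presentation, the sums of the other 12 overlapped (80.9 to 110 and 103 to 186). Lens markers were higher in sum, from 615 to 702 and from 878 to 972 over 15 genes: PROX1, a homeodomain factor of lens fibres that neurons also use, rose from 7.56, 7.61 and 7.59 to 8.54, 8.41 and 8.85 (1.02 ± 0.12, adjusted p = 0.00011), and the crystallin CRYBA2 fell by 0.56 ± 0.13. Without PROX1 the sums of the other 14 lens markers overlapped, from 439 to 530 and from 527 to 556, and the median change over all 15 was 0.06. In each of these lists the gene left out was the one whose mean intensity differed most between the stages, which was chosen after values were seen.

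Vessel (20 genes, with a rise of the endothelial secreted protein EGFL7 by 0.83 ± 0.21), erythrocyte (9), eye and forebrain (11) and sensory neuron markers (10) overlapped in sum between the stages. Without SIX3, left out by the same rule, the sums of the other 10 eye and forebrain markers did not overlap. They ran from 180 to 203 at HH16 and from 207 to 257 at HH18. Without FLI1, HBBR and ETV1, the vessel, erythrocyte and sensory neuron sums still overlapped. The part of these other cell types in the changes described was not tested. Of the 12 called genes named as markers, 8 kept their calls with each array left out, and CSF1R, EGFL7, CRYBA2 and TBX22 all lost theirs without HH18 replicate 2 (adjusted p up to 0.12).

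Several large families were called in both directions or had no call. The 218 solute carriers gave 6 rises and 7 falls, with a median of 0.00, and 141 transmembrane proteins of unknown role gave 3 of each. No member was called among 11 SOX factors, 16 forkhead factors, 11 HOX factors, 25 SWI/SNF and CHD remodellers, 24 ABC transporters, 19 cytochromes P450, 31 genes of cholesterol and fatty acid synthesis or 25 tripartite motif proteins. Over all 24 groups with no call from limma, 59 of 354 tested genes (16.7%) had an unadjusted p under 0.05, against 2386 of all tested genes (22.4%). These groups were picked for having no call, whereas the share of all genes includes the called ones. A lower share follows in part from that choice, so it does not show that these groups changed less. Across the 37 gene lists, 71 families of shared symbol and 3 lists added afterwards, which hold 2997 tested genes, 123 rose and 122 fell, and 381 called genes belong to none of them.

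The later step, HH20 minus HH18, uses the same HH18 arrays, so the changes of the steps are not independent and are given side by side only. In it 61 probe sets rose and 26 fell, 0.355% of those tested. Of the genes called in the earlier step, 18 were also called in the later one in the same direction and 1, NOTUM, in the opposite direction (0.69, adjusted p = 0.024, after -0.49). S100A1 rose by 0.85 and then 0.94 (adjusted p = 0.0013 for the later step), TMEFF2 by 0.89 and 1.0 (0.00093), FABP6, a fatty acid binding protein, by 0.91 and 0.90 (0.0018), and BHLHE22, a helix-loop-helix factor of neurons, by 0.73 and 0.76 (0.021). SST1 rose by 0.99 and then 2.0, MEGF10, an engulfment receptor, by 0.60 and 1.06, and AMER2, a WNT pathway adaptor, by 0.57 and 0.87. Further rises called in both steps were those of STMN2 (0.55 and 0.73), TAGLN3 (0.52 and 0.58) and CHGA (0.81 and 0.75). ISL2 (0.63 and 0.83) and GSTA4 (1.08 and 0.86) were likewise called in both. Falls in both steps included those of TNFSF13B, a cytokine of the TNF family (-1.24 and -1.21), SH3BGR (-1.05 and -0.99), HAPLN1 (-1.31 and -0.77), STRIP2 (-0.64 and -0.69) and NR6A1 (-1.0 and -0.54).

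Many of the larger early changes had small values in the later step that did not pass. ELAVL2 changed by 1.16 and then 0.03, CD44 by 1.18 and 0.15, PDE4D by 1.16 and -0.13, DYNC1H1 by 0.59 and -0.01, ALDH1A3 by 0.72 and 0.15, CXCL12 by -0.71 and -0.03, and UPK1B by -1.24 and 0.19. The difference between the steps was itself tested, and it passed for 8 probe sets, 0.0327% of those tested, among them the representatives of PDK4 and STOM. For the other genes of this paragraph it did not pass, which does not show that their steps were alike. GATA3 changed by 0.26 in the earlier step and rose by 1.6 in the later (adjusted p = 0.00058).

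**Figure D5:**
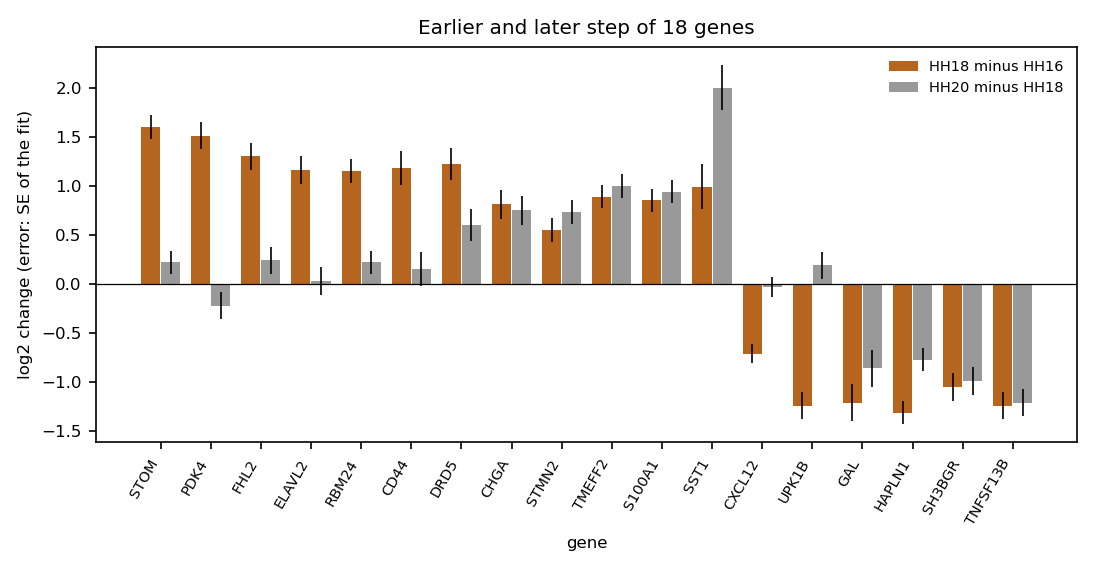
Log2 changes of 18 genes in the earlier step (brown, HH18 minus HH16) and the later step (grey, HH20 minus HH18), with error bars of 1 SE from the fit. Both steps use the HH18 arrays. On the left STOM, PDK4, FHL2 and ELAVL2 have tall brown bars beside short grey ones, and for S100A1, TMEFF2, SH3BGR and TNFSF13B the bars of both steps are of similar height.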

How the data were processed

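Olfactory placode RNA of 3 stages (HH16, HH18 and HH20, 3 samples each) was hybridised to Affymetrix chicken arrays, after amplification and biotin labelling with NuGEN kits per the labels' protocols. The deposited table holds 1 linear intensity per probe set and array, made by the authors with MAS5 per the submitters' processing notes, and its version and scaling are not given in the sources used here. Since array totals differed, the intensities were transformed as log2(value + 16) and quantile normalized over all 38535 probe sets. The filter kept the 24489 chicken probe sets that passed the 40th percentile of all chicken probe sets on 3 or more arrays. The platform annotation named 18873 of these with 1 symbol, and a gene was represented by its probe set of highest mean.

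One limma fit (limma 3.58.1, R 4.3.3, lmFit with a mean per stage over 9 arrays, eBayes with an intensity trend) gave two-sided tests with Benjamini-Hochberg adjustment over the 24489 probe sets and a threshold of 0.05. The script was tested on simulated data. Errors are the fit's standard errors, or SDs over 3 arrays where a stage level is given. Background was the 99th percentile of an array's virus probe sets. Of the 626 called genes, 335 had other tested probe sets: 50 with another called in the same direction, 283 with none called and 2 (HAUS6 and USP10) with one called in the opposite direction. Among named genes with none called, no other probe set shared the direction of DRD5, NHLH2, MSI1, TRPC1, KCNC2, TUBA5, ADAM10, GDPD5, RRP12, CSF1R or AMER2.

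The genes, lists and tests were chosen with earlier results of these data known. Genes were named if among the 25 largest rises or falls with non-overlapping groups, among up to 6 called members of a list or family, members of a family called in opposite directions, or on a short list of placode and GnRH neuron genes. STRIP2, MEGF10, AMER2 and BHLHE22, named for the later step, lie outside that rule and were chosen after their values were seen. Groups were described by counts and medians without a test. Same-numbered replicates of the stages did not vary together (correlations of deviations -0.13, 0.04 and -0.01), so no pairing was used. Alternatives were other scalings, pseudocounts, filters, models, probe set rules and leaving out arrays. No array pair held identical values, and no sequences or coordinates are given. Some placode genes and 1 gene family are not reported here.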

Additional observations from a re-analysis of the deposited data

Results flagged for a closer look

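The later step (HH20 minus HH18) differed from the earlier step (HH18 minus HH16) for 2 named genes. For PDK4 the later change was lower than the earlier one by 1.73 on the log2 scale (difference -1.73 ± 0.24, SE, adjusted p = 0.024), with 1.51 in the earlier step and -0.22 in the later, and all 3 HH18 arrays were above all 3 HH16 arrays. For STOM the difference was -1.37 ± 0.20 (adjusted p = 0.024), from 1.6 in the earlier step and 0.22 in the later. Both steps use the HH18 arrays, so a deviation of that stage enters both with opposite sign, and its part was not tested.

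Of the other 6 probe sets that passed this test, 3 carry no single symbol, and 3 are probe sets of SRI (-2.21 ± 0.35), NOTUM (1.93 ± 0.32) and RBM10 (1.56 ± 0.26) that do not represent their genes elsewhere. SRI and RBM10 were named after their values were seen.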

How the results depend on the processing

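The counts depend on the scaling, the filter, the variance model and single arrays. On the deposited values without normalization 44 probe sets were called (36 of them at least 2-fold), 23 genes, 11 members of gene lists and families, and 0 differences between the steps. Without a filter on low values the counts were 641 probe sets, 365 genes, 152 members and 0 differences; with only the 6 arrays of HH16 and HH18, 577, 336 and 145; without an intensity trend, 646, 334, 137 and 0. The pseudocount moved the probe sets of at least 2-fold from 82 to 254 (pseudocount 1) and 16 (pseudocount 64). Leaving out each array in turn gave 401 (without HH18 replicate 2) to 1002 probe sets, 225 to 551 genes, 98 to 232 members and 0 to 30 differences between the steps. Without HH16 replicate 1 and HH18 replicate 2 together, chosen after seeing the data, the counts were 399, 227, 105 and 0. Differences between the steps numbered 24 with arrays centred on their medians, 15 with trimmed-mean scaling and 3 with array weights. The replicate block, which rests on no pairing, gave 818 probe sets and 454 genes.

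Over all 626 called genes, 179 kept their calls with each array left out. Of 163 called genes named in the text, 80 did so. The naming rule favours large changes with non-overlapping groups, so the named genes do not stand for all called genes. Without HH18 replicate 2, 86 of the 163 kept their calls, with the replicate block 136, and on the deposited values 15. TUBB3 was at 0.00 on the deposited values, and changes that turned sign there were those of KIF2A (-0.06), KIF11 (-0.10), MSI1 (-0.06), PCDHGA2 (-0.02), SPRY2 (-0.09), RDH10 (-0.04) and HEY1 (-0.13), where all genes moved by -0.31. MSI1 was at -0.14 in the mean of its probe sets. The cause was not tested. Dim genes are limited by background: 12 called genes were not well above it on any array of 1 stage. EPHA6, ISL2, CDH8 and MEGF10 were above it on 2 of the 3 HH16 arrays.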
